A study of Mus musculus with 5 samples.

Results

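The receptors described here let myeloid cells sense formylated peptides, complement fragments and chemotactic lipids. The list holds 7 mouse genes, given by symbol: the formyl peptide receptor genes Fpr1, Fpr2 and Fpr-rs7, the C5a receptor gene C5ar1, the C3a receptor gene C3ar1, the leukotriene B4 receptor gene Ltb4r1 and the platelet-activating factor receptor gene Ptafr. Of these 7, 3 matched a probe set in the platform annotation, against 14807 genes with a probe set of a single symbol in the whole table. Fpr-rs7 (probe set 6854094) and C3ar1 (probe set 6957059) each have a probe set of their own. Ptafr shares its only probe set (6925802) with Dnajc8, which encodes a J-domain protein and is the next protein-coding gene in RefSeq, so that value cannot be assigned to either gene. Fpr1, Fpr2, C5ar1 and Ltb4r1 matched no probe set by symbol, older symbol or gene number and were not analysed here. Among several probe sets of a receptor the one to use was to be chosen by the highest mean over the 5 arrays, but each matched receptor had 1, so no measured value decided between probe sets. The list itself was drawn up with results of these arrays known.

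CD11b+Gr1+ cells were sorted from the lungs of wild-type mice that had carried LLC-RFP cells under the skin for 9 days (2 arrays) and from the lungs of control wild-type mice without tumour cells (3 arrays). LLC stands for Lewis lung carcinoma, a mouse tumour line, here marked with a red fluorescent protein (RFP), of which 5000000 cells were injected. About 100000 cells were sorted for a sample, and CD11b with Gr1 takes in both neutrophils and monocytes. The labels give no age or strain and do not say whether a sample is 1 mouse or a pool, so p-values measure only the spread between these samples, which may be technical. Values are log2 expression values after RMA, the normalization applied before deposit. The comparison is tumour-challenged minus control, and it addresses what a tumour at a distant site does to myeloid cells in the lung.

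All of these receptors have 7 membrane-spanning helices and act through G proteins. Formyl peptide receptors detect peptides that bacteria and mitochondria release and also bind host peptides such as those of annexin A1. The anaphylatoxins C3a and C5a are split off during complement activation, and leukotriene B4 and platelet-activating factor are made from membrane lipids. Their receptors direct neutrophils and monocytes to inflamed tissue. Fpr-rs7 differs from the others: in the mouse it and several close relatives are known as receptors of sensory neurons of the vomeronasal organ.

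The Fpr-rs genes are close in sequence around the coding start. The bases around the coding start of the 4 Fpr-rs genes that have a probe set are shown because their values are given side by side below and Fpr-rs7 and Fpr-rs6 are identical in this stretch. The 60 bases are from RefSeq (GRCm38.p6), 5′ to 3′, and the coding sequence starts at base 11. Capitals mark bases that differ from Fpr-rs7 at the same distance from the start.
Fpr-rs7: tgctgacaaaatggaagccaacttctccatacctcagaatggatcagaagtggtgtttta
Fpr-rs6: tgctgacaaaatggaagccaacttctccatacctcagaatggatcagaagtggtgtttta
Fpr-rs4: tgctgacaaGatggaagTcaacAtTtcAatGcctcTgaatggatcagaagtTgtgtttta
Fpr-rs3: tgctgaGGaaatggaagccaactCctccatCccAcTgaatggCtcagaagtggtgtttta
The stretches lie at chr17:20114177-20114236 on the minus strand for Fpr-rs7, chr17:20183048-20183107 on the minus strand for Fpr-rs6, chr17:18021723-18021782 on the plus strand for Fpr-rs4 and chr17:20624828-20624887 on the minus strand for Fpr-rs3. Fpr-rs6 matches Fpr-rs7 at all 60 bases, and the identical run reaches 91 bases from the end of the stretch back into the upstream sequence. Fpr-rs3 differs at 7 and Fpr-rs4 at 8 of the 60 bases. Further upstream they are less alike. Over the 300 bases up to the end of the stretch, compared without gaps, identity to Fpr-rs7 was 66.7% for Fpr-rs6, 52% for Fpr-rs3 and 49% for Fpr-rs4. Fpr-rs7 and Fpr-rs6 are also neighbours, with 0 protein-coding genes between them. Probe sequences were not analysed here, and cross-hybridisation between these genes was not tested.

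Fpr-rs7 had higher values in cells from tumour-challenged mice, but all of them were dim. It stood at 5.77 and 6.21 (log2) on the 2 tumour-challenged arrays, against 5.34, 4.84 and 4.43 on the 3 control arrays. Both tumour-challenged arrays lay above all control arrays, and control replicate 3 was the lowest. The mean was 5.99 ± 0.31 (SD, n = 2) in tumour-challenged samples and 4.87 ± 0.46 (SD, n = 3) in controls, a log2 difference of 1.12 ± 0.32 (SE, 95% interval 0.27 to 1.97).

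This difference did not pass when all 16661 probe sets were tested together (limma, Benjamini-Hochberg adjusted p = 0.688). At the threshold of 0.05 on the adjusted p, limma called 0% of probe sets in the higher direction and 0% in the lower. Without adjustment 597 (3.58%) in the higher and 493 (2.96%) in the lower direction had a p under 0.05, and with an intensity trend and robust variances limma again called 0. Group means more than 2-fold apart, the rule in the study's design text, were found for 0.144% of probe sets in the higher direction (24) and 0.132% in the lower direction (22), and Fpr-rs7 is 1 of the 24. Without control replicate 3 its difference was 0.90, which is under 2-fold, and it was also 0.90 without tumour-challenged replicate 2.

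The level of Fpr-rs7 was read against a background level set from 834 probe sets of olfactory, vomeronasal and taste receptors, genes known mainly from sensory tissue. Their means over the arrays had a median of 5.23 and a 95th percentile of 6.89, and the 95th percentile served as the background level. Where no arrays are named, a gene counts as above or under it in a group by its group mean. None of the 5 arrays placed Fpr-rs7 above it, so its log2 difference, also where it counts among the 24, compares values that are not above background. Both tumour-challenged arrays and 1 of the 3 control arrays lay above the median of 5.23. The differences of the 834 probe sets ran from -1.22 to 0.84 with a median of -0.03, and 0 of them were more than 2-fold higher while 2 were more than 2-fold lower. The difference of Fpr-rs7, 1.12, is thus above the highest of these chemosensory receptors but smaller in size than the lowest, -1.22. Because Fpr-rs7 was listed with its difference known, that place is a description.

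**Figure D1:**
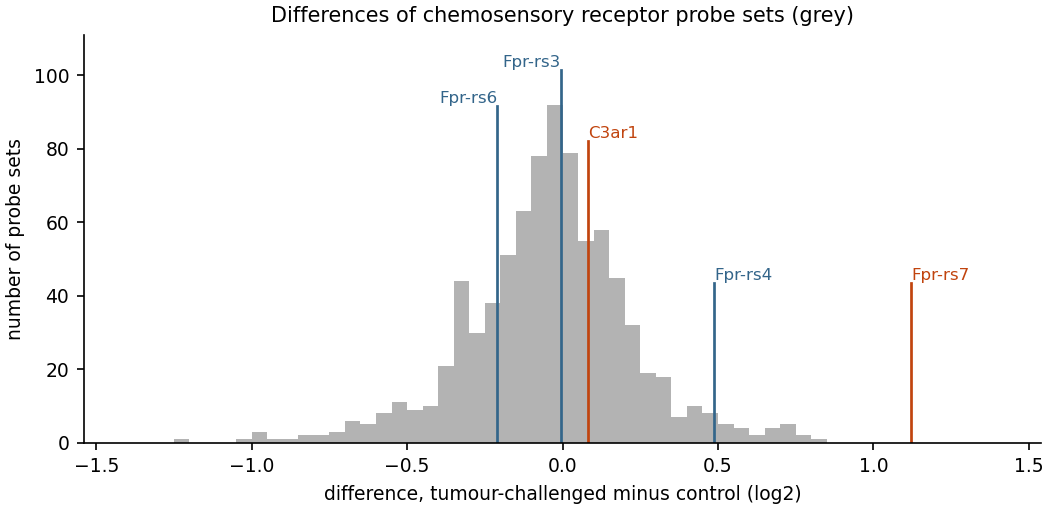
Histogram of the difference between tumour-challenged and control means (log2, x axis) over 834 probe sets of olfactory, vomeronasal and taste receptors (grey; y axis, number of probe sets in bins of equal width), with vertical lines at the differences of C3ar1 and of the 4 Fpr-rs genes. Line heights carry no meaning. Fpr-rs7 lies at 1.12, beyond the highest grey value of 0.84, while Fpr-rs6 and Fpr-rs3 lie at -0.21 and -0.01.

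C3ar1 was the one receptor of the list with a probe set of its own above background in both groups. Its values were 8.14 and 7.58 on the tumour-challenged arrays, against 8.01, 7.55 and 7.77 on the control arrays. The groups overlapped: tumour-challenged replicate 1 was the brightest of the 5 and tumour-challenged replicate 2 lay between controls. The mean was 7.86 ± 0.40 (SD, n = 2) in tumour-challenged samples and 7.78 ± 0.23 (SD, n = 3) in controls. The log2 difference of 0.08 ± 0.23 (SE) has a 95% interval of -0.53 to 0.70, which covers differences in either direction (limma adjusted p = 0.958). Its sign turned when an array was left out: the difference was -0.20 without tumour-challenged replicate 1, -0.03 without control replicate 2 and 0.36 without tumour-challenged replicate 2. After quantile normalization it was -0.010.

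The probe set shared by Dnajc8 and Ptafr was bright on every array. It read 10.88 and 10.50 in tumour-challenged samples, against 10.42, 10.46 and 10.72 in controls. The groups overlapped through control replicate 3. The difference was 0.15 ± 0.16 (SE, 95% interval -0.29 to 0.59, limma adjusted p = 0.879), and -0.039 without tumour-challenged replicate 1.

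**Figure D2:**
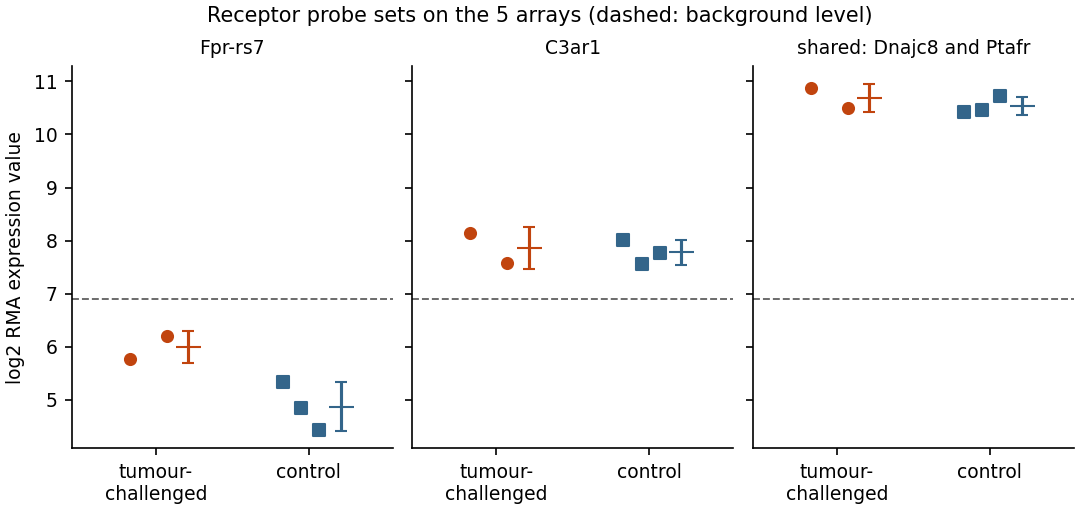
Log2 RMA expression value (y axis) of Fpr-rs7, C3ar1 and the probe set shared by Dnajc8 and Ptafr. Each point is 1 array, with tumour-challenged (circles, n = 2) left of control (squares, n = 3). Horizontal marks with bars are means ± SD, and the dashed line is the background level of 6.89. The groups are apart for Fpr-rs7, entirely under the dashed line, and overlap for the other probe sets.

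Over the 3 receptor probe sets the median difference was 0.15 log2, against 0.02 over all probe sets, and it was 0.60 over the 2 with a single symbol. The 0.15 is the value of the probe set shared by Dnajc8 and Ptafr. The 0.60 lies midway between Fpr-rs7 (1.12, under background) and C3ar1 (0.08), so neither median describes the receptors as a group. For 1 of the 3, Fpr-rs7, the groups were apart in the higher direction. Over all probe sets this held for 11.2% in the higher direction and 7.83% in the lower direction, so 1 of 3 gives no result about the list.

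The genes whose 5 values were most like those of C3ar1 were found by the root mean square distance after subtracting each gene's own mean. Kctd12b lay at a distance of 0.0082 log2, Extl2 at 0.024 and Slc39a10 at 0.031, where the median over genes was 0.25. For the probe set shared by Dnajc8 and Ptafr they were Olfr934 (0.032), Cpt2 (0.036) and Rer1 (0.036), with a median over genes of 0.22. Olfr934, which stands first for the shared probe set, is an olfactory receptor gene with values under the background level. A gene with equal values on all 5 arrays would lie at 0.23 from C3ar1 and 0.18 from the shared probe set, not far from these medians. Among 14807 genes with 5 values each, some lie close to any pattern, so the nearest genes are a description.

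Among the close relatives of Fpr-rs7, Fpr-rs4 also had higher values after tumour challenge. These relatives and C5ar2 were picked for their gene families, outside the rule for named genes and after their values were seen. Fpr-rs4 read 6.03 and 5.69 in tumour-challenged samples, against 5.36, 5.42 and 5.33 in controls, a difference of 0.49 ± 0.12 (SE, limma adjusted p = 0.648) with groups that did not overlap, and 0.32 without tumour-challenged replicate 1. Its stretch above holds 8 bases that differ from Fpr-rs7.

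Fpr-rs6, the gene with the same 60 bases as Fpr-rs7, did not show that pattern. It read 4.78 and 4.75 in tumour-challenged samples, against 5.24, 4.64 and 5.05 in controls, with a difference of -0.21 ± 0.20 (SE, adjusted p = 0.869) that was -0.077 without control replicate 1. Fpr-rs3 read 6.37 and 6.14 in tumour-challenged samples, against 6.63, 6.33 and 5.82 in controls, and its difference was -0.01 ± 0.27 (SE). For both genes the groups overlapped, and all 4 Fpr-rs genes lay under the background level in both groups. Whether Fpr-rs7 differs from Fpr-rs6 in its response was not tested.

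C5ar2 encodes a receptor for C5a that does not act through G proteins, and it is the RefSeq neighbour of C5ar1. It read 7.19 and 6.55 in tumour-challenged samples, against 6.87, 7.21 and 7.23 in controls. The difference of -0.24 ± 0.24 (SE, adjusted p = 0.875) turned to 0.086 without tumour-challenged replicate 2 and was -0.56 without tumour-challenged replicate 1. These values straddle the background level of 6.89.

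**Figure D3:**
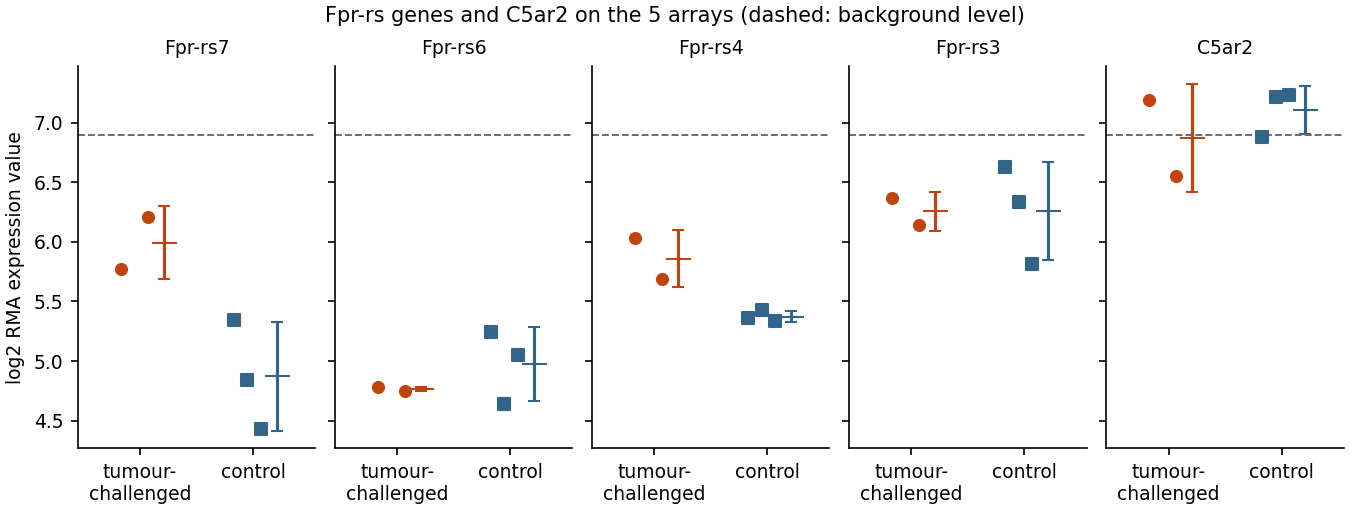
Log2 RMA expression value (y axis) of the 4 Fpr-rs genes and C5ar2 on each array, with tumour-challenged (circles, n = 2) left of control (squares, n = 3), means ± SD beside the points and the background level of 6.89 as a dashed line. The groups are apart for Fpr-rs7 and Fpr-rs4 and overlap for Fpr-rs6, Fpr-rs3 and C5ar2.

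Other receptors for lipids, peptides and metabolites differed in both directions, and none passed the test. Of 18 listed genes 16 were measured, 6 with a positive and 10 with a negative difference, and the median was -0.03. It lay between -0.13 without control replicate 3 and 0.031 without tumour-challenged replicate 2. The groups did not overlap for 4 in the higher direction (Ptger2, Cysltr1, Fpr-rs4 and Gpr183, the last named after its values were seen, at 0.21) and for 2 in the lower, where the shares over all probe sets were 11.2% and 7.83%. Ptger2, a prostaglandin E2 receptor, read 7.13 and 6.55 in tumour-challenged samples, against 6.18, 6.35 and 5.99 in controls (difference 0.67 ± 0.22, SE, and 0.37 without tumour-challenged replicate 1). Both group means of Ptger2, 6.84 and 6.18, lay under the background level. Cysltr1, a receptor for cysteinyl leukotrienes, read 8.52 and 7.98 in tumour-challenged samples, against 7.97, 7.37 and 7.73 in controls (difference 0.56 ± 0.25, and 0.29 without tumour-challenged replicate 1). For Cysltr1 the groups barely separated, since tumour-challenged replicate 2 and control replicate 1 were almost level.

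P2ry14, the receptor for UDP-glucose, and Hcar2, the receptor for niacin and the ketone body hydroxybutyrate, were lower in the tumour-challenged samples with groups that did not overlap. P2ry14 read 6.86 and 6.51 in tumour-challenged samples, against 7.66, 7.13 and 7.64 in controls (difference -0.79 ± 0.22, SE, adjusted p = 0.687). Hcar2 read 10.39 and 10.19 in tumour-challenged samples, against 10.69, 11.09 and 10.75 in controls (difference -0.56 ± 0.16, SE, adjusted p = 0.688). The tumour-challenged mean of P2ry14, 6.68, lay under the background level.

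Genes for host peptides that act on formyl peptide receptors had the largest median difference among the 6 pathway lists, 1.16 log2 over 4 measured of 7 listed genes. Leaving out tumour-challenged replicate 1 brought it to 0.72, and leaving out tumour-challenged replicate 2 to 0.93. All 4 had a positive difference and groups that did not overlap (11.2% of all probe sets lay apart in that direction), 2 lay above background in both groups, and none passed the test. The list was drawn up with the values of Saa3 and Camp known, so its direction is not independent evidence. Fewer cells of a type and less RNA per cell cannot be told apart in such bulk samples, for these and for all values given here.

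Anxa1, the gene of annexin A1, was bright in both groups. It read 11.45 and 11.01 in tumour-challenged samples, against 10.61, 10.57 and 10.27 in controls. Both tumour-challenged arrays exceeded all controls, and the difference of 0.75 ± 0.19 (SE, 1.68-fold, adjusted p = 0.662) stayed between 0.52 and 0.97 when single arrays were left out. App, which encodes the precursor of amyloid beta, a peptide known to act on the human receptor FPR2, read 10.30 and 10.11 in tumour-challenged samples, against 10.04, 9.90 and 9.40 in controls (difference 0.43 ± 0.22, SE, and 0.24 without control replicate 3).

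Saa3, of the acute-phase serum amyloid A genes whose proteins are known to act on FPR2 in humans, and Camp, which encodes the antimicrobial peptide cathelicidin, a known agonist of mouse Fpr2, each leaned on 1 tumour-challenged array. Saa3 read 9.01 and 7.40 in tumour-challenged samples, against 6.35, 6.48 and 6.60 in controls, and its difference of 1.73 ± 0.51 (SE) was 0.92 without tumour-challenged replicate 1. Camp read 7.58 and 8.93 in tumour-challenged samples, against 6.71, 6.89 and 6.47 in controls, and its difference of 1.56 ± 0.44 (SE) was 0.89 without tumour-challenged replicate 2. The high array differs between the genes, and the control means of both, 6.48 and 6.69, lay under the background level.

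Camp also stands in the list of neutrophil markers, where other genes of neutrophil granules had large differences. Ngp differed by 2.12 ± 0.18, Ltf, lactoferrin, by 1.83 ± 0.10 and Lcn2, lipocalin 2, by 1.67 ± 0.17 (SE), none past the test over all probe sets (adjusted p = 0.517, 0.495 and 0.517). The mean log2 level of the 13 measured neutrophil markers was 10.67 to 10.79 in tumour-challenged samples, against 10.09 to 10.22 in controls. Of the 13, 11 lay above the background level in both groups, and Ltf and Camp in the tumour-challenged group alone, so the difference of Ltf is measured against controls at background. The list's median difference was 0.01, with 7 positive and 6 negative. More than 2-fold higher were 5 of them, Ngp, Ltf, Lcn2, Camp and Mmp8, where the share over all probe sets was 0.144%. The others ran from -0.30 for Il1r2 to 0.29 for Mmp9, so the higher mean level rests on those 5. Because the list was chosen with earlier results of these data known, this count is a description. The part of granule genes in the ligand differences was not tested.

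**Figure D4:**
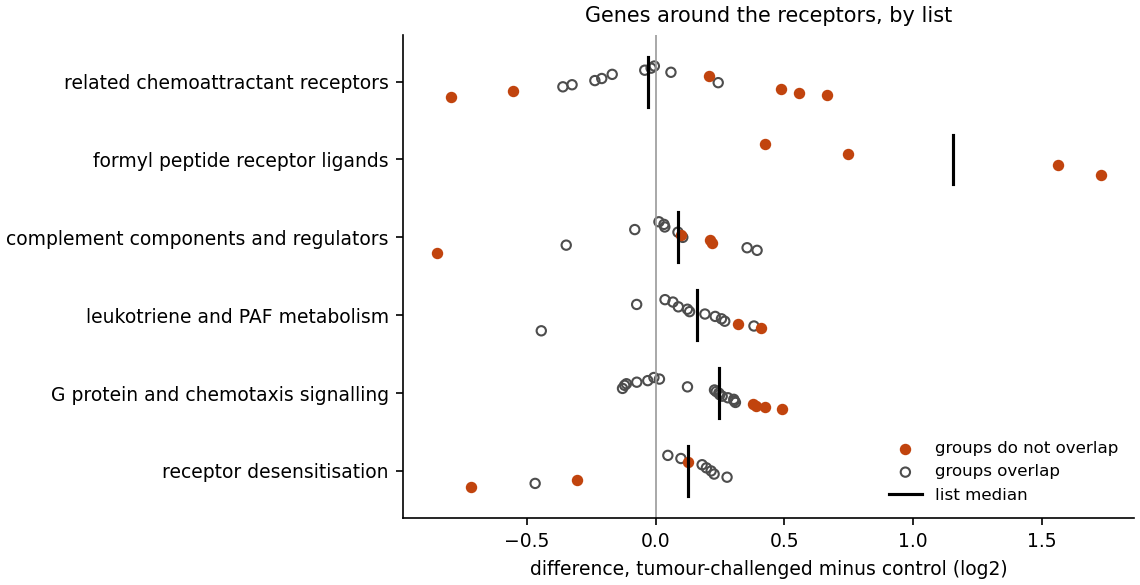
Difference between tumour-challenged and control means (log2, x axis) for each measured gene of 6 lists around the receptors (rows; PAF is platelet-activating factor). Filled points are genes whose groups do not overlap, open points are genes whose groups overlap, and black lines are list medians. The 4 ligand genes lie between 0.43 and 1.73, while the medians of the other lists lie between -0.03 and 0.25.

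Cd55 had the largest difference among the complement genes. Of 21 listed genes 13 were measured, and 6 of the 13 lay above the background level. The difference was positive for 10 and negative for 3, with a median of 0.09, where 58.3% of all genes were positive. Leaving out tumour-challenged replicate 1 brought the median to 0.026, leaving out tumour-challenged replicate 2 to 0.055, quantile normalization to 0.048 and centring the arrays to 0.056. The groups did not overlap for 3 in the higher direction, C1qc, Cfi and Serping1, which were named after their values were seen and differed by 0.21, 0.10 and 0.22, against 11.2% of all probe sets. Both group means of C1qc and of Cfi lay under the background level, and without tumour-challenged replicate 1 they differed by 0.13 and 0.010. Cfi read 5.27 on all 3 control arrays, against 5.45 and 5.28 in tumour-challenged samples, so its groups barely separated. None of the 13 passed the test. In the lower direction (7.83% of all probe sets) the groups were apart for 1 gene, Cd55, decay-accelerating factor, which takes apart the C3 convertases that produce C3a. Cd55 read 8.14 and 8.11 in tumour-challenged samples, against 8.63, 9.11 and 9.19 in controls. The difference of -0.85 ± 0.19 (SE, limma adjusted p = 0.627) lay between -1.02 and -0.75 when single arrays were left out.

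The C1q chain genes C1qb and C1qa differed by 0.39 ± 0.18 and 0.35 ± 0.19 (SE), with overlapping groups and C1qa under the background level. Leaving out tumour-challenged replicate 1 gave 0.24 for C1qb, and leaving out control replicate 3 gave 0.21 for C1qa. Cfb, factor B of the alternative pathway, read 7.78 and 7.24 in tumour-challenged samples, against 8.08, 7.69 and 7.80 in controls (difference -0.35 ± 0.22, SE; -0.62 when tumour-challenged replicate 1 was left out and -0.075 when replicate 2 of that group was).

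Genes that make and break down leukotrienes and platelet-activating factor had a median difference of 0.16 over 14 measured of 15 listed. Of these, 12 were positive and 2 negative, where 58.3% of all genes were positive. Lta4h, the enzyme that forms leukotriene B4, the ligand of the Ltb4r1 receptor, read 7.68 and 7.50 in tumour-challenged samples, against 7.37, 7.13 and 7.32 in controls (difference 0.32 ± 0.11, SE, adjusted p = 0.727). Lpcat1, a lysophospholipid acyltransferase, read 8.24 and 8.13 in tumour-challenged samples, against 7.71, 7.91 and 7.71 in controls (difference 0.41 ± 0.09, SE, adjusted p = 0.620). These were the 2 genes of the list whose groups did not overlap, both in the higher direction (11.2% of all probe sets), and none of the 14 passed the test. Pla2g7, which inactivates platelet-activating factor, had a difference of 0.38 ± 0.26 (SE), which was -0.0027 when tumour-challenged replicate 1 was left out. Alox15 differed by -0.44 ± 0.23 (SE) with overlapping groups. Both its group means lay under the background level, though control replicates 1 and 2 read 7.07 and 7.09. The list's median was 0.0019 without tumour-challenged replicate 1.

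Downstream of the receptors, 21 of 30 listed genes of G proteins and chemotaxis were measured, 15 with a positive and 6 with a negative difference, and the median was 0.25. Over all 14807 genes 58.3% had a positive difference. The groups did not overlap for 4, all in the higher direction, where 11.2% of all probe sets lay apart. They were Rac2, which acts in the movement of blood cells (0.49 ± 0.25, SE), Gng2 and Gnb2, subunits of G proteins (0.43 ± 0.15 and 0.39 ± 0.20), and Pik3r6, a regulatory subunit of phosphoinositide 3-kinase gamma (0.38 ± 0.11). Their adjusted p ran from 0.688 for Pik3r6 to 0.816 for Gnb2, so none passed. Without control replicate 3 the difference of Rac2 was 0.28 and that of Gnb2 0.21. Leaving out tumour-challenged replicate 1 brought the list's median to 0.07, and leaving out control replicate 3 to 0.06.

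The same arrays stood out for most of this list and of 3 other pathway lists. Tumour-challenged replicate 1 was the highest of the 5 arrays for 76.2% of its genes and control replicate 3 the lowest for 71.4%. These shares were 75% and 75% for the 4 ligand genes, 71.4% and 64.3% for the lipid mediator enzymes and 63.6% and 54.5% for the genes that switch off receptor signals. They were 37.5% and 43.8% for the related receptors and 30.8% and 38.5% for the complement genes, and over all genes they were 36.8% and 37.0%. Upper quartiles of the arrays ran from 7.96 to 8.23 in tumour-challenged samples, against 7.90 to 8.09 in controls, highest in tumour-challenged replicate 1 and lowest in control replicate 3. The part of array brightness in the medians of these lists was not tested.

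**Figure D5:**
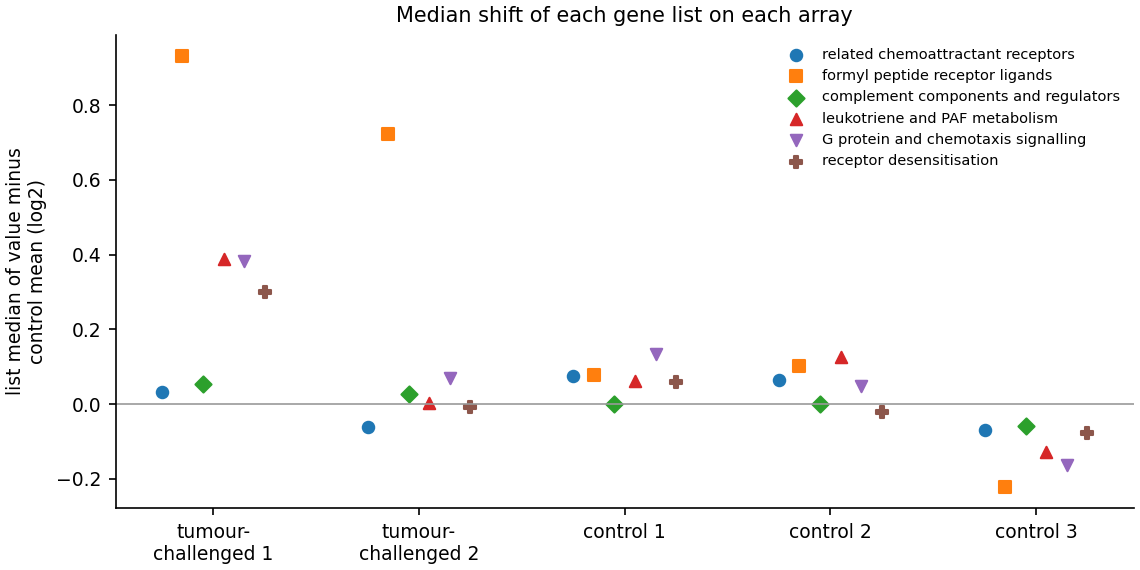
Median over each of 6 gene lists of the log2 value minus the gene's control mean (y axis) on each array (x axis, tumour-challenged arrays left of control arrays; symbols mark lists). The ligand list stands at 0.93 and 0.72 on the tumour-challenged arrays, while the G protein list stands at 0.38 on tumour-challenged replicate 1, 0.07 on tumour-challenged replicate 2 and -0.16 on control replicate 3.

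Genes that switch off receptor signals had a median difference of 0.12 over 11 measured of 12 listed, and -0.0078 without tumour-challenged replicate 1. Of the 11, 8 were positive (58.3% of all genes were) and 3 negative. The negative genes had the larger differences, and none of the 11 passed the test. Rgs1, which speeds GTP hydrolysis by G proteins, read 8.96 and 8.16 in tumour-challenged samples, against 9.19, 9.15 and 9.48 in controls (difference -0.72 ± 0.27, SE, and -0.32 without tumour-challenged replicate 2). Its relative Rgs2 read 11.61 and 11.25 in tumour-challenged samples, against 11.71, 11.70 and 11.79 in controls (difference -0.31 ± 0.13, and -0.12 without tumour-challenged replicate 2). For Rgs1 and Rgs2 the groups were apart in the lower direction, and for Rgs14 (0.12), named after its values were seen, in the higher (7.83% and 11.2% of all probe sets). Grk3, a kinase that phosphorylates active receptors, differed by -0.47 ± 0.30 and Rgs19 by 0.28 ± 0.19 (SE), both with overlapping groups. Without control replicate 1 the difference of Grk3 was -0.22, and without tumour-challenged replicate 1 that of Rgs19 was -0.0033.

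Markers of the cells that the sort could hold are given beside these values, since C3ar1, Anxa1 and Cd55 are made by several of them. The 9 measured monocyte markers all lay above background, with 6 positive and 3 negative differences (median 0.07) and a mean level of 10.65 to 11.22 in tumour-challenged samples, against 10.33 to 10.82 in controls. Their largest differences were in Vcan (2.23), F13a1 (0.79) and Fn1 (0.65), and leaving out tumour-challenged replicate 1 brought F13a1 to 0.44 and Fn1 to 0.36. The other monocyte markers ran from -0.23 for Ms4a6c to 0.08 for Cx3cr1, so the higher mean level rests on Vcan, F13a1 and Fn1. Alveolar macrophage markers were negative in 8 of 12 (median -0.09), led by Lpl (-0.83), Mrc1 (-0.48) and Fabp4 (-0.41). Their median was -0.18 when tumour-challenged replicate 1 was left out, -0.030 when replicate 2 of that group was, and -0.15 after quantile normalization. For 4 of the 12 the groups were apart in the lower direction, and for Abcg1 (0.38) in the higher (7.83% and 11.2% of all probe sets). Siglecf, Chil3, Pparg and Ctsk lay between -0.07 and 0.09 with overlapping groups. B cell markers were negative in 9 of 9 (median -0.60), with groups that did not overlap for 7 (7.83% of all probe sets lay apart in the lower direction) and a mean level of 7.02 on both tumour-challenged arrays, against 7.43 to 7.66 in controls. Of the 9, 5 lay above background in both groups. The tumour-challenged means of Ms4a1, Cr2, Cd22 and Vpreb3 lay under it, that of Vpreb3 with its control mean. Groups overlapped for Cd79b (-0.29) and Cd79a (-0.25). Eosinophil, basophil and mast cell markers were negative in 8 of 14 (median -0.03), with Ccr3 at -1.48, Mcpt8 at 0.98 and Prg2 at 0.83. Each of these 3 lay above background in 1 group alone, and 2 of the 14 did so in both. The median of the 14 lay between -0.046 without control replicate 1 and -0.012 without control replicate 2, and at -0.061 with the arrays centred.

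Dendritic cell markers were negative in 6 of 10 (median -0.07), with Flt3 at 1.27, Clec9a at -1.17 and Cd209a at -0.59. Leaving out tumour-challenged replicate 1 brought their median to -0.0010, and leaving out control replicate 3 to -0.044. Without tumour-challenged replicate 1 Flt3 was at 0.52, and without tumour-challenged replicate 2 Cd209a was at -0.25. T and NK cell markers were positive in 6 of 10 (median 0.07), with Ncr1 at -0.44, Klrd1 at -0.21 and Cd3d at 0.20. Ncr1 lay under background and was at -0.25 without tumour-challenged replicate 2, and Cd3d was at 0.072 without tumour-challenged replicate 1. Lung epithelial markers were positive in 11 of 13 (median 0.28), where 58.3% of all genes were positive. Sftpa1 was at 0.89, Sftpc at 0.50 and Cyp2f2 at 0.39. Sftpc was at 0.24 without control replicate 3 and Cyp2f2 at 0.12 without control replicate 1. Of the 13 epithelial markers, 10 lay above background in both groups. Sftpc was bright on every array, at 12.28 and 12.20 in tumour-challenged samples, against 11.56, 12.45 and 11.20 in controls. Endothelial and platelet markers were positive in 5 of 10 (median -0.00072), with Pf4 at 1.10, Ppbp at 1.00 and Kdr at -0.19. Without tumour-challenged replicate 1 Pf4 was at 0.38 and Ppbp at 0.45, and without control replicate 2 Kdr was at -0.083. The control mean of Pf4 and both means of Kdr lay under background. No marker passed the test over all probe sets. The part of any of these cells in the receptor, ligand and Cd55 values was not tested.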

How the data were processed

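Arrays of CD11b+Gr1+ lung cells (2 tumour-challenged, 3 control, grouped by their titles) were read from the deposited table of log2 values for 16661 probe sets, made by the authors with RMA per the submitters' processing notes. The notes also name the genome build mm8. What it was used for, the RMA version and any filter are not stated there. Per the labels' protocols, RNA was amplified from small inputs, which can widen the spread between arrays. Their number limits the precision. Probe sets were named from the platform annotation: 14939 carry 1 symbol, of which 14884 matched RefSeq by gene number, 989 carry several and 733 are unnamed here. The brightest single-symbol probe set stood for a gene.

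The test was limma 3.58.1 (R 4.3.3), two-sided, tumour-challenged minus control, on the log2 values as deposited, with p-values adjusted (Benjamini-Hochberg) over the whole table and called under 0.05 (3 residual and 1.36 prior degrees of freedom). It was tested on simulated data. Lists (6 of pathways, 9 of cell markers) were described by counts and medians. Named were the receptors, up to 4 genes of a pathway list and up to 3 of a marker list by the size of the difference, and the 3 genes nearest to a receptor above background. Receptors and lists were chosen with earlier results of these data known.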

Additional observations from a re-analysis of the deposited data

How the results depend on the processing

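Limits: 2 arrays against 3 left 3 residual degrees of freedom, 4 of the 7 receptors had no probe set, and Fpr-rs7 lay under the background level, so its difference compares values not above background. The alternatives were each array centred on its median, quantile normalization, the dimmest 25% of probe sets left out (which removes Fpr-rs7), an intensity trend with robust variances, each array left out in turn, and the replicate number as a block. The block gives the same differences and medians as leaving out control replicate 3, so for these it is not a separate alternative. Alternatives for list medians, and the one without the shared probe set, were chosen after seeing the data. In the 9 alternatives that kept Fpr-rs7 its difference was positive, from 0.90 to 1.36, and did not pass.

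Centring the arrays led limma to call 1 probe set in the higher direction, that of Ltf (1.80, adjusted p = 0.0254), and the other settings called 0. Of 135 alternative list medians, 7 shifted by more than 1 SD of the list's own median level between arrays of a group: those of formyl peptide receptor ligands (0.72 and 0.93), lipid mediator enzymes (0.0019 and 0.39) and B cell markers (both -0.49) without tumour-challenged replicate 1 and 2, and of epithelial markers (0.12) without control replicate 1. The sign turned for 18 of the 135, in 6 lists: related receptors, receptor desensitisation, and neutrophil (-0.034 to 0.16), monocyte (-0.19 to 0.31), T and NK cell (-0.18 to 0.14) and endothelial with platelet markers. Probe sets past 2-fold numbered 17 to 57 higher and 23 to 75 lower with single arrays left out, with 57 without tumour-challenged replicate 2, and 75 and 45 without tumour-challenged replicate 1 and control replicate 2. The receptor median was 0.60 without the shared probe set, which leaves 2 receptors, and -0.039 to 0.36 with single arrays left out. Quantile normalization gave -0.010 for C3ar1.

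Signs turned with single arrays left out for C3ar1 (-0.20 to 0.36), the probe set of Dnajc8 and Ptafr (-0.039 to 0.34), Fpr-rs3 (-0.23 to 0.18), C5ar2 (-0.56 to 0.086), Pla2g7 (-0.0027 to 0.77), Rgs19 (-0.0033 to 0.56) and Klrd1 (-0.56 to 0.14), and for 5 genes near C3ar1 or the shared probe set: Olfr934 (-0.021 to 0.30), Rer1 (-0.019 to 0.38), Kctd12b (-0.21 to 0.36), Extl2 (-0.17 to 0.34) and Slc39a10 (-0.15 to 0.39). The cause was not tested.

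The labels give the groups shared replicate numbers but do not say that a number marks a shared mouse or day. Deviations from the group means correlated at 0.29 for number 1 and 0.22 for number 2 across probe sets. With 2 tumour-challenged arrays their deviations are mirror images, so these are not separate checks. Unlike numbers 1 and 2 gave -0.29 and -0.22 by construction, and control replicate 3 gave -0.05 and 0.05. These values cannot tell whether a number marks a shared mouse or day. With the replicate number as a block, 0 probe sets were called, 17 were past 2-fold higher and 23 lower. The differences were 0.90 for Fpr-rs7, 0.08 for C3ar1 and 0.25 for the shared probe set. Only control replicate 3 carries number 3, so the block gives that array no weight. These differences therefore repeat those without control replicate 3. The block also left fewer than 3 residual degrees of freedom, so its 0 calls say little.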
